A study of Canis lupus familiaris with 6 samples.

Results

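The claudins, together with other genes of the tight junction and of the polarity complexes, were examined in RasV12-transformed canine epithelial cells that had or had not shared a dish with normal cells. Members were all non-control probes whose gene name on the array was CLDN followed by a digit, and the probes of 18 further named genes of the junction and of the Par, Crumbs and Scribble polarity complexes. They came to 31 genes, 19 claudins and 12 others, out of 34378 gene names, and to 41 probes out of 43603. Each gene was read from the probe with the highest mean log2 intensity, and its other probes served as a check. MARVELD3, F11R, PARD6A, PARD6B, CRB3 and SCRIB had no probe of that gene name. Probes whose description names MARVELD3, F11R, PARD6B or CRB3 are given separately, and none was found for PARD6A or SCRIB.

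MDCK is a line of dog kidney tubule epithelium, and MDCK-pTR GFP-RasV12 cells are its derivative with GFP-RasV12, an oncogenic Ras fused to a fluorescent protein, switched on by tetracycline. In the first group these cells were cultured alone, and in the second, called mixed here, they were grown with an excess of normal MDCK cells. Both groups had 24 h of tetracycline on collagen-coated dishes, and GFP-positive cells were then collected by flow cytometry, so normal cells of the mixed dishes were meant to be left out. Each group had 3 arrays of 1 colour. Nothing in the descriptions says that the 3 came from separate cultures, so the p-values measure only the spread between these samples. The label of mixed replicate 2 gives 100 normal cells per RasV12 cell and the labels of mixed replicates 1 and 3 give 10. The stated extraction source also names an mCherry-β-catenin mutant that the sample names lack.

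Tight junctions seal the space between epithelial cells near their apical end. Claudins are the membrane proteins that make up the junction strands and set which ions pass: some, such as claudin-2, form pores for cations and water, whereas others, such as claudin-1 and claudin-3, tighten the barrier. The ZO proteins (TJP genes) and cingulins tie claudins and occludin to the actin cytoskeleton, while the Par and Crumbs complexes specify the apical domain and the Scribble complex the basolateral side. MDCK cells are a standard model for all of these, and MDCK strains are known to differ in claudin-2 and in how leaky their junctions are. The strain is not given in the sources used here.

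The probes behind the main results are listed by the first 30 of their 60 bases, 5′ to 3′ as the array design gives them, because each value below is a hybridisation signal of that sequence and the probes of one gene did not give the same size of difference. Positions are those of the array files on CanFam3.1. CLDN2 has 3 probes that do not overlap. Probe 1, the main one, lies at chrX:80486411-80486470, probe 2 at chrX:80484800-80484859 and probe 3 at chrX:80484427-80484486, all on the plus strand. Between probes 1 and 2 lie 1551 bases, and between probes 2 and 3 lie 313. CLDN3 is read at chr6:6535160-6535222 (plus) and CLDN4 at chr6:6493663-6493722 (minus). CLDN1 is read at chr34:22305700-22307429 (minus), a span longer than the probe. OCLN is read at chr2:54545656-54545715 (plus), with another probe at chr2:54545044-54545103, and the probe described as CLDN15 lies at chr6:8652590-8652649 (plus). The array files do not say whether a probe lies in coding sequence or in a UTR.
CLDN2 probe 1: gagacctctttgtatctcccagactagcta
CLDN2 probe 2: tagattgactttgcccactggatcaagtga
CLDN2 probe 3: atagcatgaagttcgagatcggagaagctc
CLDN3: cggagaccaacccactccagacgccccgag
CLDN4: aatatcatccgggacttctacaacccgctg
CLDN1: atttttatgaccctatgaccccggtcaatg
OCLN main probe: ttccatatgttacttactatggctactgcc
OCLN other probe: ttgaagagcaaattgtcccacatcaagaag
CLDN15 by description: ggcctcggacgaagaaggcgacagcacctt

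Levels are log2 processed intensity minus the 75th percentile of the array, so a level of 0 is the 75th percentile, and differences are mixed minus alone on the log2 scale. The 75th percentile lay between 592 and 700 intensity units on the 6 arrays, and 60.8% to 66.4% of probes were well above background. The 3 alone arrays share 1 slide and the 3 mixed arrays another, so slide and culture cannot be told apart. Alone replicate 1 stood apart from the other alone arrays in the summed level of 17 interferon-stimulated genes. That summed level, the sum of linear intensities each divided by the 75th percentile, was 131 against 72.3 and 82.5. ISG15 was its largest part, at levels of 6.23, 5.41 and 5.63 in alone replicates 1, 2 and 3. The members whose main-probe call changes without alone replicate 1 are given with their values. Of the interferon-stimulated list 12 genes rose in mixed culture, where 5.63% of all genes rose, and the median difference of all 17 was 1.30. The list was chosen knowing that such genes moved in earlier results of these same arrays, so its count is no independent test. The epithelial markers EPCAM, KRT18 and KRT19 were strong on all arrays. None of 6 epithelial markers tested passed limma's test, where 10.9% of all genes passed. Of them 1 had an unadjusted p under 0.05, CDH1 (E-cadherin), with a difference of -0.37 (adjusted p = 0.0648) and no overlap. The GRHL2 probe was not well above background on any array. Of the markers of leukocytes, endothelium and mesenchyme, PTPRC, CDH5 and COL3A1 were not well above background on any array, whereas CD68 (909 to 1061 units), PECAM1 (386 to 492) and COL1A2 (617 to 744) were well above it on all 6, as were CD79A, KDR, TIE1, COL1A1, PDGFRB, ACTA2 and LUM. The summed level of the leukocyte list was 1.53 to 1.65 alone and 1.67 to 1.78 mixed, that of the endothelial list 0.89 to 1.00 and 0.99 to 1.05, and that of the mesenchymal list 1.35 to 1.55 and 1.55 to 1.77. CD68, PECAM1 and COL1A2 were the largest parts of these 3 sums. The part of these lists in the members' differences was not tested. Of these 3 lists, 0 of 11 genes tested passed, where 10.9% of all genes passed. An unadjusted p under 0.05 was found for 2 mesenchymal genes, against 30.9% of all genes. Of 7 genes of renal tubule segments tested, 1 passed, the water channel AQP2 (difference 0.36), beside the same 10.9% of all genes. LRP2, UMOD and SLC12A3 were not well above background.

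Of the 31 members, 23 were well above background on all 6 arrays and were tested. CLDN2 and CLDN3 rose in mixed culture, no member fell, and 21 did not pass (limma, Benjamini-Hochberg over all 26535 probes tested, threshold 0.05). Over all 19626 genes tested, 10.9% passed, 5.63% higher and 5.29% lower, so the members' count of 2 among 23 is near the background. At an unadjusted p under 0.05, 13 members passed, 10 of them higher and 3 lower, against 30.9% of all genes, 16.2% higher and 14.7% lower. The methods' t-test with the same adjustment called 2, and 826 of all 26535 probes. Of the 23 differences 15 were above 0 and 8 below, and their median was 0.05 against 0.01 over all genes. The median size of a difference, without its sign, was 0.33 for members and 0.18 for all genes, whereas the median SD between replicates was 0.14 and 0.13. The groups did not overlap for 10 members, against a background of 36.5% of all genes. All these are differences relative to the 75th percentile. Scaled to the spike-in controls instead, every difference fell by 0.16.

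**Figure D1:**
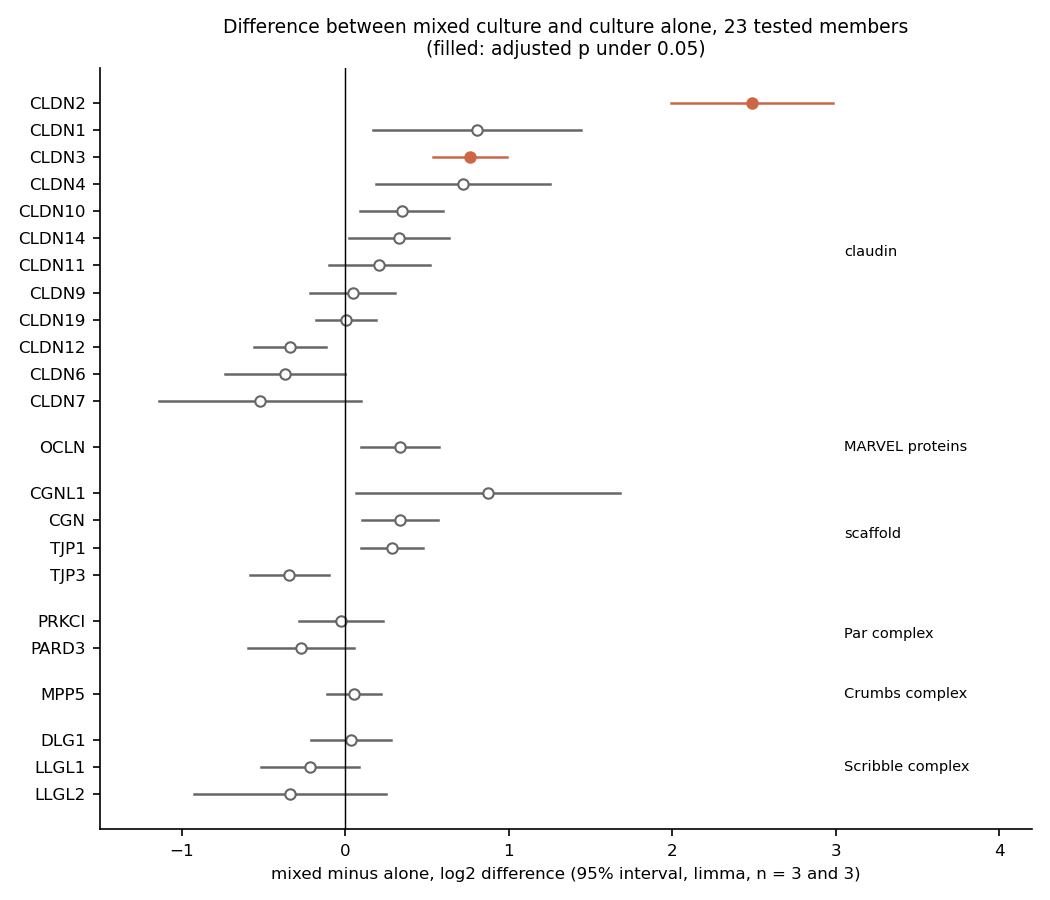
Mixed minus alone log2 difference of each of the 23 tested members with its 95% interval from limma (horizontal axis, n = 3 and 3), grouped by role; filled orange points passed the adjusted threshold of 0.05. CLDN2 at 2.49 lies outside the range of all other members, which run from -0.52 (CLDN7) to 0.87 (CGNL1).

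CLDN2, the cation and water pore, had the largest difference of all tested members. On its main probe the level was 3.28, 3.30 and 3.50 in alone replicates 1, 2 and 3, and 5.36, 6.06 and 6.13 in mixed replicates 1, 2 and 3. Every mixed array was above every alone array, and mixed replicate 1 was the lowest of the mixed. The means were 3.36 ± 0.12 and 5.85 ± 0.42 (SD, n = 3 each). The difference was 2.49 with a standard error of 0.21, a 5.61-fold higher intensity, with a 95% interval of 1.99 to 2.98 and an adjusted p of 0.0103. In RNA pooled from sorted cells, a change in how many cells carry a transcript and a change in the amount per cell cannot be told apart.

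The other CLDN2 probes rose too. Probe 3 read -3.68, -3.26 and -3.39 in the alone arrays and -2.11, -1.65 and -1.44 in the mixed arrays, a difference of 1.71 (SE 0.19, adjusted p = 0.0131) or 3.27-fold. Probe 2 was well above background on 2 of 3 alone arrays and on all 3 mixed arrays. It read -6.73, -5.45 and -5.27 alone and -3.30, -2.92 and -2.71 mixed. With each alone array set no lower than the dimmest signal well above background there, its mixed signal was at least 5.49-fold higher, and its fitted difference of 2.84 (SE 0.39, adjusted p = 0.0169) includes an array below background. Probes 1 and 3, which were above background on all 6 arrays, differed by 2.49 and 1.71. With normexp background correction, which adds an offset of 50 units, probes 2 and 3 passed with smaller differences, 1.08 and 1.06, and by the methods' t-test neither passed (adjusted p = 0.0654 and 0.0517). Probe 2 passed in 8 of 14 other settings and probe 3 in 9 of 15. With 1 array left out, their adjusted p reached 0.0830 and 0.0743. Levels of different probes are not comparable with each other.

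CLDN3, a barrier-forming claudin, also rose. Its level was 1.77, 1.51 and 1.53 alone and 2.29, 2.38 and 2.43 mixed, without overlap. The means were 1.60 ± 0.14 and 2.37 ± 0.07 (SD, n = 3), and the difference was 0.76 (SE 0.09, 1.70-fold, 95% interval 0.54 to 0.99, adjusted p = 0.0142). CLDN2 and CLDN3 passed in 11 of the same 16 alternative settings and lost their call in the other 5, which were no filter on dim probes and the fits without alone replicate 2, alone replicate 3, mixed replicate 2 or mixed replicate 3. Adjusted p in those fits ran from 0.0506 to 0.0733 for CLDN2 and from 0.0688 to 0.0799 for CLDN3, while the differences stayed between 2.33 and 2.73 and between 0.60 and 0.84 in all settings. Without mixed replicate 2, whose label gives another cell ratio, they were 2.38 and 0.76.

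CLDN4 lies beside CLDN3, with 41.44 kb between their probes on chromosome 6, and encodes another barrier claudin. Its level was 2.38, 1.72 and 1.69 alone and 2.96, 2.52 and 2.46 mixed. The groups did not overlap, and replicate 1 was the highest array in each. The difference of 0.72 (SE 0.22, 95% interval 0.19 to 1.25) was close in size to that of CLDN3 but did not pass (adjusted p = 0.0842). With the replicate number as a block, which compares arrays of the same number, it passed (SE 0.08, adjusted p = 0.0315), and without alone replicate 1 the difference was 0.94 (adjusted p = 0.0173).

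CLDN1, a claudin required for barrier function in skin, read 0.36, 0.97 and 1.05 alone and 1.11, 1.92 and 1.78 mixed. Again the groups did not overlap and replicate 1 differed from the other arrays in both, here as the lowest. The difference was 0.80 (SE 0.27, 95% interval 0.17 to 1.44, adjusted p = 0.0965), and with the replicate block it passed (SE 0.08, adjusted p = 0.0313). A second probe, named CLDN1 only by its description, showed a smaller difference of 0.23 (SE 0.08, adjusted p = 0.0984), also without overlap.

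CLDN7, a claudin with roles at the lateral membrane as well as the junction, had the most negative difference of the tested members. Its level was 4.50, 5.02 and 5.27 alone and 4.82, 4.35 and 4.05 mixed, so the groups overlapped. The difference was -0.52 (SE 0.26, 95% interval -1.14 to 0.09, adjusted p = 0.218). The pair of replicate 1 arrays ran the other way, with mixed 0.33 above alone, against -0.67 and -1.22 for replicates 2 and 3.

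**Figure D2:**
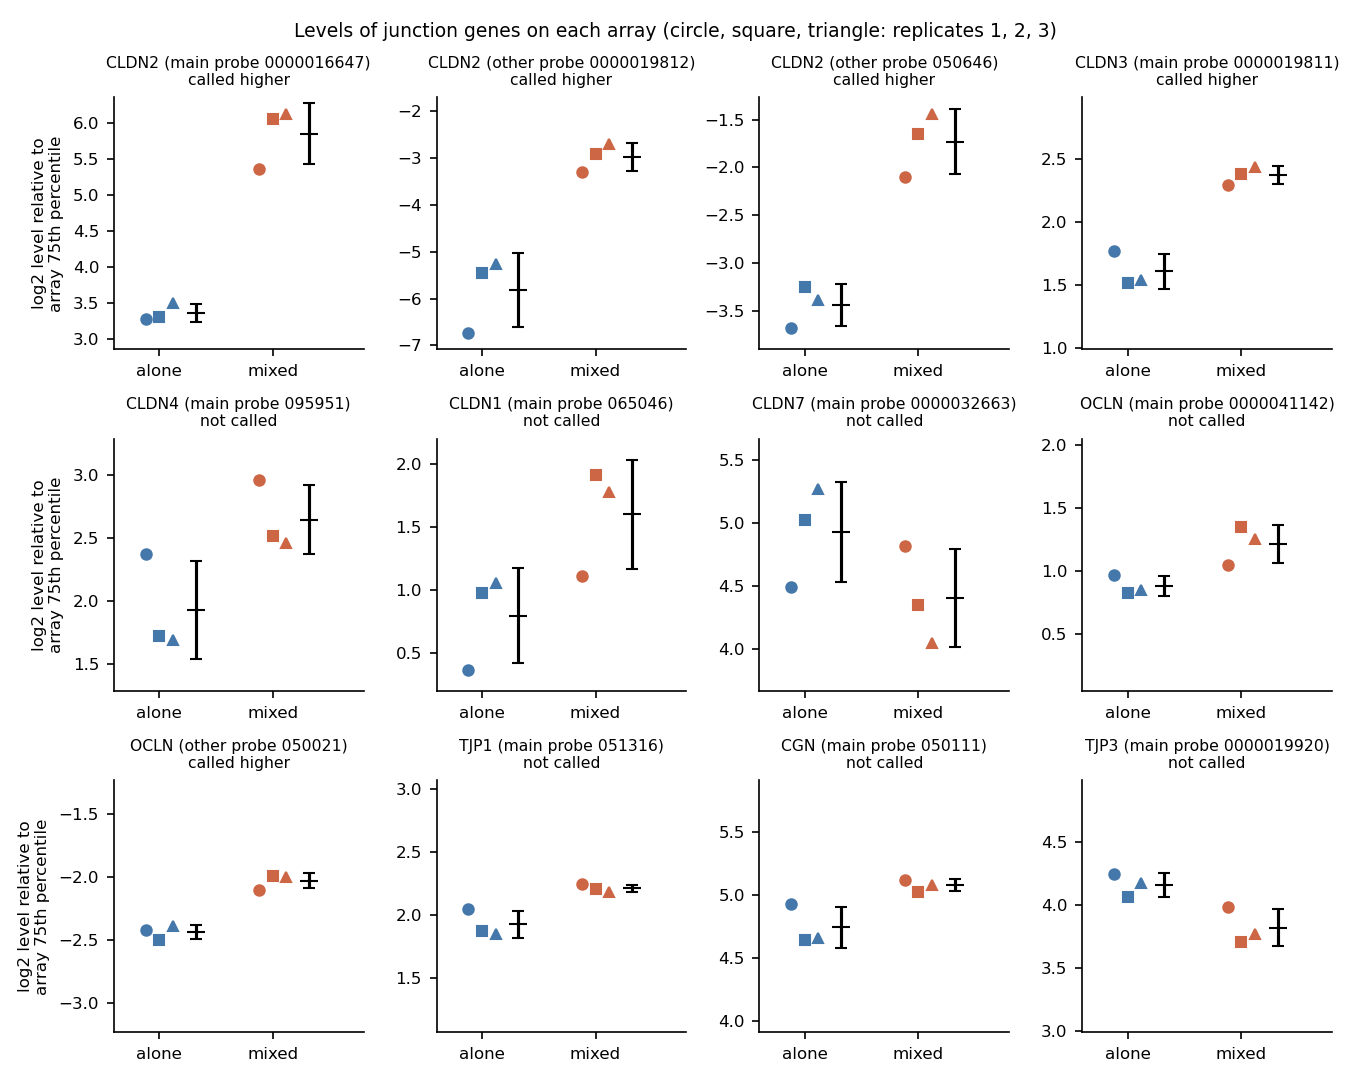
Log2 level relative to the array's 75th percentile (vertical axes, each spanning its own range) of 9 genes on each array, alone in blue and mixed in orange, with circle, square and triangle for replicates 1, 2 and 3 and black bars for the mean ± SD (n = 3). All 3 CLDN2 probes and CLDN3 are higher on each mixed array than on any alone array, CLDN7 overlaps, and in CLDN4 and CLDN1 replicate 1 is displaced in both groups.

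The remaining tested claudins had differences between -0.37 and 0.34, and none passed in the fit without a block. CLDN10, an ion-selective channel of kidney tubules, differed by 0.34 (SE 0.11, adjusted p = 0.0832) and CLDN12 by -0.34 (SE 0.09, adjusted p = 0.0615), both without overlap. CLDN6, best known from embryonic epithelia, differed by -0.37 (SE 0.15, adjusted p = 0.155). With the replicate block all 3 passed, at adjusted p = 0.0475 for CLDN10, 0.0495 for CLDN12 and 0.0472 for CLDN6. In the blocked fit 7 members passed on their main probes, where 10.6% of all genes passed. CLDN1, CLDN2, CLDN3, CLDN4 and CLDN10 were higher and CLDN6 and CLDN12 lower. All 7 are claudins, but the probe described as MARVELD3 and the other OCLN probe, not counted here, passed in that fit too.

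CLDN14, a claudin of the inner ear and kidney, differed by 0.33 (adjusted p = 0.140) and CLDN11, known from myelin and the testis, by 0.21 (adjusted p = 0.318). CLDN9 differed by 0.045 (95% interval -0.22 to 0.31) and CLDN19 by 0.0055 (-0.18 to 0.19), and both signs turned under spike-in scaling. CLDN6 and CLDN9 are neighbours, with 2.151 kb between their probes, and had differences of opposite sign. Across the claudins, 9 of 12 differences were above 0, with a median of 0.27, and for 6 the groups did not overlap, where 36.5% of all genes had no overlap.

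The pair of CLDN10 probes share a run of 53 bases, of which the part within the first 30 bases is given in capitals. The main probe lies at chr22:46225012-46225071 and the other at chr22:46225005-46225064, both plus. The main probe gave the difference of 0.34 without overlap, and the other 0.17 (SE 0.10, adjusted p = 0.292) with overlap. Intensities were 47.0 to 69.6 on the former and 37.6 to 51.5 on the latter.
CLDN10 main probe: TCCCCTCAAAGCCCTCCTCTAATCCGCACT
CLDN10 other probe: acaatgaTCCCCTCAAAGCCCTCCTCTAAT

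The 8 members that were not tested were dim. For CLDN8, CLDN16, CLDN20, CLDN22, CLDN25 and MARVELD2 no array was well above background, with intensities of 1.92 to 10.7. On the 6 arrays the dimmest probe to count as well above background had between 9.15 and 14.6 units. CLDN17 was well above background on mixed replicate 2 only, at 20.6 units, against 3.35 and 10.2 on the other mixed arrays and 9.44 to 15.4 alone. CLDN18, a claudin of stomach and lung, stood at 43.8 on alone replicate 3 and between 2.94 and 3.51 on all other arrays. Exact two-sided permutation tests over the 6 arrays gave p from 0.2 to 0.9 for these 8 genes, where 3 against 3 allows no p below 0.1. MARVELD2 encodes tricellulin, which sits where several cells meet. A dim probe bounds the signal of that probe and says nothing more of the transcript.

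**Figure D3:**
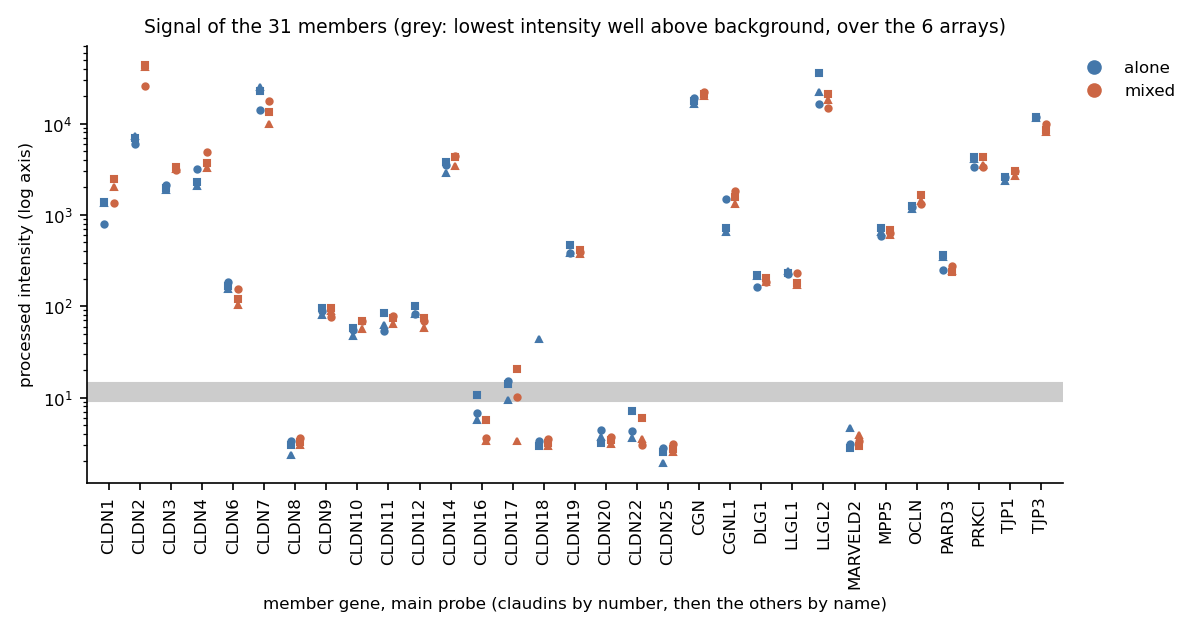
Processed intensity (vertical log axis) of the main probe of each of the 31 members, alone in blue and mixed in orange, with circle, square and triangle for replicates 1, 2 and 3 and a grey band from 9.15 to 14.6 units for the dimmest probe well above background on each array. The 8 dim members lie at or below the band except for CLDN18 on alone replicate 3 and CLDN17 on mixed replicate 2 and alone replicate 1, and heights are not comparable between probes.

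OCLN encodes occludin, the first membrane protein known from tight junctions. Its main probe read 0.97, 0.83 and 0.85 alone and 1.05, 1.35 and 1.25 mixed, without overlap, and the difference of 0.33 (SE 0.10, 95% interval 0.10 to 0.57) did not pass (adjusted p = 0.0758). Its other probe, averaged over 5 spots, read -2.42, -2.50 and -2.39 alone and -2.10, -1.99 and -1.99 mixed. That probe rose by 0.41 (SE 0.07, 1.33-fold, adjusted p = 0.0245), and did not pass under spike-in scaling (0.25, adjusted p = 0.221), with no filter on dim probes (adjusted p = 0.0975) or without alone replicate 2, alone replicate 3, mixed replicate 2 or mixed replicate 3 (0.38 to 0.43). Both probes had every mixed array above every alone array, and the mean of the 2 probes passed when it was fitted as 1 value for the gene.

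TJP1 encodes ZO-1, the main scaffold under the junction. It read 2.05, 1.88 and 1.86 alone and 2.25, 2.21 and 2.19 mixed on a probe averaged over 5 spots. The groups did not overlap, yet the difference of 0.28 (SE 0.08, 95% interval 0.09 to 0.48) did not pass (adjusted p = 0.0673). Its other probe gave 0.28 as well (SE 0.07, adjusted p = 0.0616). Without alone replicate 1 the main probe passed at 0.35 (adjusted p = 0.0165).

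CGN, which encodes cingulin, a link between ZO-1 and the actin and microtubule cytoskeleton, was of the same size at 0.33 (SE 0.10, adjusted p = 0.0731), without overlap. Its other probe differed by 0.26 (adjusted p = 0.201), with overlap. TJP3 (ZO-3), a smaller relative of ZO-1, differed in the other direction by -0.34 (SE 0.10, adjusted p = 0.0741), also without overlap. Thus 3 of the 4 scaffold genes had no overlap, CGN and TJP1 higher and TJP3 lower, beside the 36.5% of all genes. None passed as fitted here, and of 16 alternative settings TJP1 passed in 4, CGN in 3 and TJP3 in 1. CGNL1, the paralogue of cingulin, was decided by 1 array. It read 1.26, 0.03 and 0.02 alone and 1.52, 1.26 and 1.16 mixed, so alone replicate 1 lay within the mixed range. The difference was 0.87 (SE 0.34, adjusted p = 0.135), and without alone replicate 1 it was 1.29 (SE 0.12, adjusted p = 0.00503). Its second probe showed the same arrangement, with -4.74, -5.67 and -5.79 alone and -4.35, -4.62 and -4.79 mixed.

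**Figure D4:**
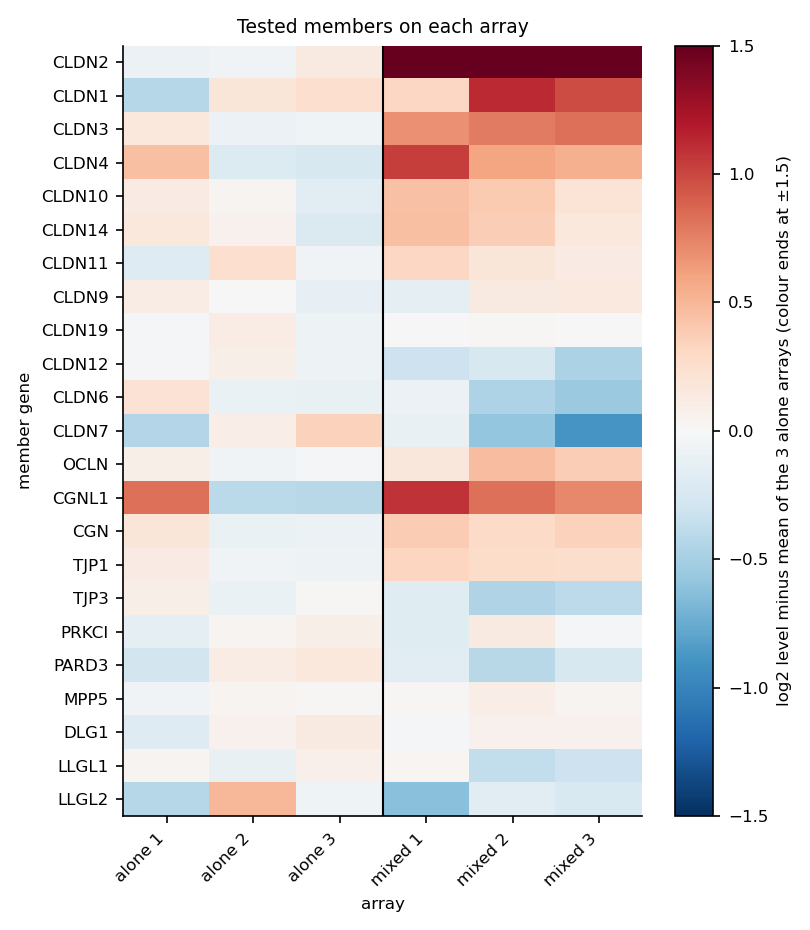
Log2 level of each tested member (rows) on each array (columns) minus the mean of its 3 alone arrays, in colour from blue (lower) to red (higher) with the scale ending at 1.5 either way, and the culture groups separated by a black line. CLDN2 exceeds the scale on all 3 mixed arrays, and alone replicate 1 differs from alone replicates 2 and 3 in CGNL1, CLDN4, CLDN1 and CLDN7.

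None of the polarity genes passed. PARD3 encodes the scaffold that places the Par complex at the junction. It read -1.31, -0.93 and -0.88 alone and -1.20, -1.45 and -1.29 mixed, with overlap, and differed by -0.27 (SE 0.14, 95% interval -0.60 to 0.05, adjusted p = 0.225). It passed only without alone replicate 1, at -0.41 (adjusted p = 0.0331). PRKCI, the atypical protein kinase C of the same complex, read 2.45, 2.62 and 2.67 alone and 2.39, 2.71 and 2.56 mixed. Its difference was -0.026 (SE 0.11, 95% interval -0.28 to 0.23, adjusted p = 0.896), and its other 2 probes gave 0.10 and 0.095, so that its sign is not set.

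Of the Crumbs complex, MPP5 (PALS1, the scaffold that holds Crumbs) differed by 0.054 (95% interval -0.11 to 0.22, adjusted p = 0.631). Of the Scribble complex, DLG1 differed by 0.033 (-0.21 to 0.28), LLGL1 by -0.22 (-0.51 to 0.08) and LLGL2 by -0.34 (-0.93 to 0.25). For all 6 Par, Crumbs and Scribble members tested the groups overlapped, where 36.5% of all genes had no overlap. Under spike-in scaling the signs for MPP5 and DLG1 turned. Among the 11 tested members that are not claudins, 5 had an unadjusted p under 0.05, where 30.9% of all genes did. None of their main probes passed after adjustment, where 10.9% of all genes passed, though the other OCLN probe did.

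Probes that carry a member's name only in their description numbered 8, of which 7 were tested and 1 passed, against 11.2% of all probes (5.5% higher, 5.72% lower). The 1 was described as CLDN15, a cation-pore claudin of the intestine, and it fell. It read -3.38, -3.65 and -3.57 alone and -4.28, -4.30 and -4.15 mixed, without overlap, at intensities of 32.5 to 59.4. The difference was -0.71 (SE 0.09, 95% interval -0.94 to -0.48, adjusted p = 0.0162). With normexp it was -0.20 and did not pass (adjusted p = 0.0984), nor did it with no filter on dim probes (adjusted p = 0.0733) or without alone replicate 2, alone replicate 3, mixed replicate 2 or mixed replicate 3, at -0.77 to -0.68.

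F11R encodes JAM-A, an immunoglobulin-type adhesion protein of the junction. Its brighter probe read 2.55, 2.48 and 2.51 alone and 2.67, 2.63 and 2.65 mixed, a difference of 0.13 (SE 0.06, adjusted p = 0.209) without overlap. Under spike-in scaling its sign turned (-0.027). The dimmer one read -1.16, -0.95 and -1.15 alone and -0.89, -0.84 and -1.01 mixed, with overlap, and differed by 0.17 (SE 0.09, adjusted p = 0.247). MARVELD3, a relative of occludin, differed by 0.42 (SE 0.13, adjusted p = 0.0832), and passed with the replicate block (adjusted p = 0.0460). With 1 array left out its adjusted p ran from 0.0400 to 0.236. PARD6B, the adaptor of the Par complex, differed by 0.33 (SE 0.11, adjusted p = 0.0923) and CRB3, the Crumbs protein of most epithelia, by 0.07 (SE 0.10, adjusted p = 0.689). The sign for CRB3 turned under spike-in scaling (-0.096). The second probe described as CLDN11 was not well above background on any array.

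A wider list of 52 further junction and polarity gene names had a probe for 40, of which 33 were tested. None rose and 1 fell, where 5.63% of all genes rose and 5.29% fell. At an unadjusted p under 0.05, 5 were higher and 3 lower, against 16.2% and 14.7% of all genes. By any probe of a gene, or by the mean of its probes, 1 rose. The 1 that fell was DLG3, a relative of DLG1, with -2.46, -2.31 and -2.38 alone and -2.91, -2.82 and -2.89 mixed. Its difference was -0.49 (SE 0.07, 1.40-fold lower, adjusted p = 0.0190). It passed in 9 of 15 other settings, with differences from -0.65 to -0.28, and not under spike-in scaling (adjusted p = 0.0521). The median difference of the wider list was 0.02, and for 11 of the 33 the groups did not overlap, near the 36.5% of all genes.

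Because deviations of arrays with the same number correlated positively over all probes, the differences were also read pair by pair. Alone replicate 2 correlated more with mixed replicate 3 (0.238) than with mixed replicate 2 (0.162), so numbers 2 and 3 do not mark clear pairs. Of the 23 members, 11 were higher in mixed in all 3 same-number pairs, 5 were lower in all 3 and 7 changed sign between pairs. Over all genes 28.9% were higher in all 3 pairs and 27.5% lower. CLDN2 differed by 2.08, 2.76 and 2.62 in pairs 1, 2 and 3. The spread was narrow for CLDN1, at 0.74, 0.94 and 0.73, and for CLDN4, at 0.59, 0.79 and 0.77. CLDN3 differed by 0.52, 0.87 and 0.90. OCLN was near 0 in pair 1, at 0.08, and differed by 0.52 and 0.41 in pairs 2 and 3.

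Alone replicate 1 weighed on the count of members. Without it 9 members passed, CLDN2, CLDN3, CLDN4, CLDN10, OCLN, TJP1, CGN and CGNL1 higher and PARD3 lower, where 26.3% of all genes passed. CLDN10 then differed by 0.41 (adjusted p = 0.0430), OCLN by 0.38 (adjusted p = 0.0499) and CGN by 0.43 (adjusted p = 0.0118). Genes that Ras-MAPK signalling induces, a mark of RasV12 cells against normal MDCK cells, had a summed level of 112 to 116 alone and 91.6 to 110 mixed. Most of that sum was DUSP6, which differed by -0.19 and did not pass (adjusted p = 0.205). Of 10 such genes tested, 3 fell (FOSL1, EPHA2 and CCND1, by 0.52, 0.71 and 0.59) and none rose, where 5.29% of all genes fell and 5.63% rose. At an unadjusted p under 0.05, 4 were lower and 1 higher, against 14.7% and 16.2% of all genes. The 1 higher was SPRED1, by 0.39 (adjusted p = 0.0567). The part of these Ras-MAPK genes in the claudin differences was not tested.

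**Figure D5:**
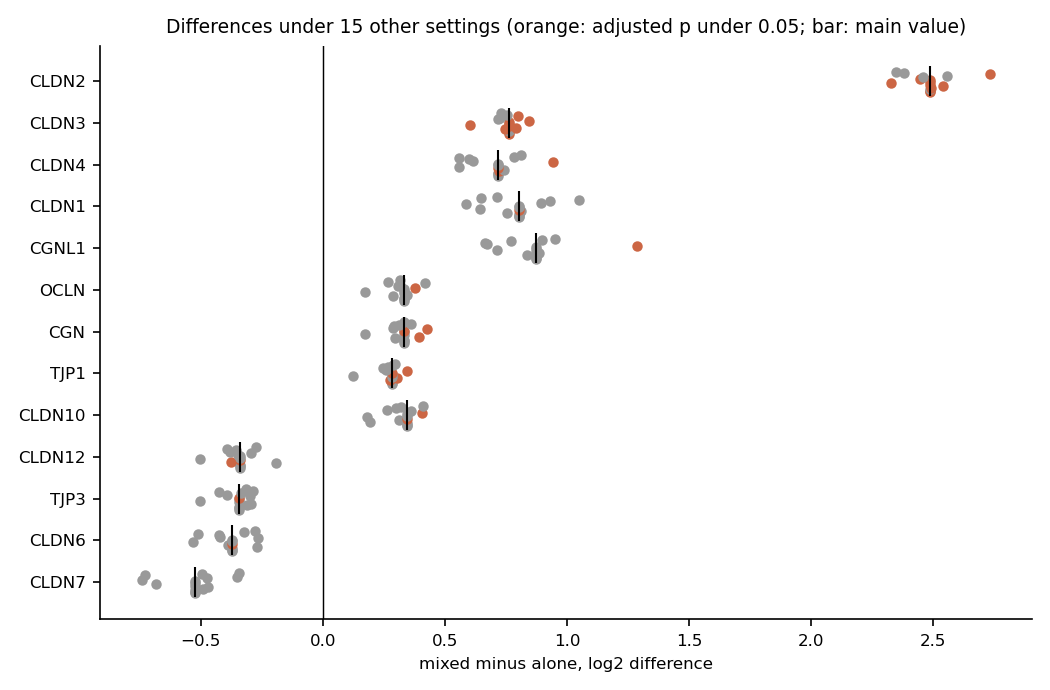
Mixed minus alone log2 difference (horizontal axis) of 13 members under 15 other settings, 1 point per setting, orange where the adjusted p was under 0.05 and grey where not, with a black bar at the reported value. CLDN2 and CLDN3 keep their sign in every setting and are orange in 10 of the 15, and no other member shown is orange in more than 4.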

How the data were processed

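RNA of GFP-positive cells (3 alone, 3 mixed) was hybridised by the authors to 1-colour Agilent canine 4x44K V2 arrays and read with Feature Extraction 10.10, per the file headers. The deposited scanner files hold processed intensity per spot, background-subtracted by that software, and the deposited log2 table matched log2 intensity minus each array's 75th percentile. Intensity was scaled the same way here, flagged and control spots were left out and spots of a probe averaged. A probe was tested where every array of 1 group or of both had it well above background (26535 of 43603), with limma 3.58.1 in R 4.3.3 (lmFit, eBayes, two-sided, Benjamini-Hochberg, threshold 0.05), without covariates. The number of arrays limits the precision. Same-number arrays of the groups correlated in their deviations at 0.349, 0.162 and 0.296 over 26529 probes, and arrays of different number at -0.329 to 0.238 (the highest for alone 2 with mixed 3). A replicate block was also fitted. The number equals the position on the slide, and what else it stands for is not stated.

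Alternatives were quantile normalization, normexp (offset 50), other filters, the deposited table, the methods' t-test, a trended robust prior, the block, spike-in scaling, each array left out, and the mean or any probe of a gene. Fits were tested on simulated data. Members, the wider list and the marker lists (epithelial, renal tubule, mesenchymal, endothelial, leukocyte, Ras-MAPK output, interferon-stimulated) were chosen with earlier results of these data known. Named in full are members called plus CLDN1, CLDN4, CLDN7, OCLN, TJP1, F11R, PARD3 and PRKCI, and called genes of the wider list; others were named after their values were seen.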

Additional observations from a re-analysis of the deposited data

How the results depend on the processing

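Of 378 member values under other settings, 330 kept direction and side of the threshold, 22 kept direction and gained a call, 10 kept it and lost one, and 16 turned sign; the causes were not tested. The count of members passing, 2, was 5 under quantile normalization, 4 under normexp, 5 under a trended robust prior, 7 with the replicate block and 0 with no filter on dim probes (11 at an unadjusted p under 0.05), and 0 to 9 with 1 array left out. Of all 26535 probes, 2978 passed as reported, 2991 under quantile normalization, 3977 under normexp and 3721 under the trended robust prior. Under normexp and that prior, more probes thus passed over the whole array too. The wider list's count of 1 was 3 under normexp, 3 under the trended robust prior, 0 with no filter, 0 under spike-in scaling, 2 by the mean of a gene's probes, 2 by any probe and 0 to 8 with 1 array left out. Over all probes 2978 passed, against 12 with no filter, 826 by the methods' t-test with adjustment, 935 under spike-in scaling, 2825 with the replicate block, and 7 to 7335 with 1 array left out: 7335 without alone replicate 1, and 24, 7, 9 and 12 without alone replicates 2 and 3 and mixed replicates 2 and 3.

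Signs turned only in small differences. Under spike-in scaling MPP5 was -0.11, DLG1 -0.13, CLDN19 -0.16 and CLDN9 -0.12, and under quantile normalization CLDN19 was -0.011. PRKCI was 0.057 by the mean of its probes and 0.10 and 0.095 on its other probes. With 1 array left out, PRKCI ran from -0.10 to 0.055, DLG1 from -0.065 to 0.098, CLDN19 from -0.035 to 0.061 and CLDN9 from -0.014 to 0.14. The replicate block changed the calls of CLDN1, CLDN4, CLDN6, CLDN10 and CLDN12 and of no other member's main probe. Probes near background, as for CLDN10 and CLDN15, limit what signal can show.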
